A study of Mus musculus with 24 samples.

Results

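The AP-1 family was described here by 8 genes, Fos, Fosb, Fosl1, Fosl2, Jun, Junb, Jund and Atf3, in all 24 libraries of C2C12 muscle sheets, unstimulated or stimulated with light. The 8 genes were chosen by their names, as a family picked with earlier fold changes of these same libraries known, so their differences between groups are given as a description and with no p. All 8 were found among the 56941 genes in the files, and all 8 passed the filter on low counts that kept 13315 genes.

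C2C12 is a mouse myoblast line that fuses into contractile myotubes, and every library here, the unstimulated control included, came from cells of the genotype ChR2::tdTomato, which express a blue-light-gated cation channel fused to a red fluorescent protein. The sheets were grown on grooved fibrin gels in a differentiation medium with horse serum and IGF-1, and the 6 control sheets differed from the others in receiving no light sessions. The other groups had a session of 60 min each day at 1, 4 or 10 Hz, with 6 biological replicates per group. This is 1 cell line in culture without nerve or vessels, the controls also twitched on their own, and the interval between the last session and lysis is not given in the sources used here, which matters for mRNAs as short-lived as that of Fos. Contraction during the light sessions is not reported for these sheets in the sources used here, and effects of light and of contraction cannot be told apart.

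AP-1 is a dimer of basic leucine zipper (bZIP) proteins. FOS proteins cannot pair with each other and bind DNA only after pairing with a JUN protein, whereas JUN proteins can also pair among themselves. Fos, Fosb, Jun, Junb and Atf3 are immediate early genes, whose transcription starts within minutes of a calcium, growth factor or stress signal and needs no new protein, and their mRNAs decay fast. Fosl1, also called Fra-1, and Fosl2, also called Fra-2, lack the strong activation domain of Fos and rise later and for longer, and Jund is made at a steady level in most cells. Contraction of skeletal muscle is a textbook inducer of Fos and Jun.

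Between 8052369 and 18159144 estimated counts were summed per library (median 10481932.5). Myotube genes were high in every library, with Acta1, the skeletal muscle actin, at 4610 to 8510 TPM (transcripts per 1e+06, a level scaled for transcript length), and 11 of 12 markers of immune, endothelial and epithelial cells stayed at or below 1.16 TPM in every library, with Ptprc, Adgre1, Cd3e, Cdh5, Epcam and Krt5 at a median of 0 TPM. The exception, Cd68, is a lysosomal gene and stood at 55.1 to 102 TPM. The 5 markers of myoblasts and cycling cells summed to 16.7 to 19.8 TPM in the controls, 23.9 to 38.2 at 1 Hz, 16.1 to 25.9 at 4 Hz and 19.5 to 28.2 at 10 Hz, a sum in which Myf5 weighs most. Of these 5, 1 was called higher (Myf5) and 3 lower (Pax7, Mki67 and Ccnb1) at 4 Hz against control, and 1 higher (Myf5) and 1 lower (Pax7) at 1 Hz. Their part in the results was not tested. In 3 libraries, 1 Hz replicates 4 and 6 and 4 Hz replicate 3, the median gene's ratio of TPM to CPM (counts per 1e+06 after TMM scaling of library size) was 0.482, 0.48 and 0.434, against 0.531 to 0.706 in the other 21. The ratio also differed between groups, since all 6 libraries at 4 Hz (0.434 to 0.624) were below all 6 controls (0.649 to 0.705), while 1 Hz (0.48 to 0.683) and 10 Hz (0.597 to 0.706) overlapped the controls. The share of counts from mitochondrial genes was 3.97, 4.87 and 8.9% in those 3 libraries, against 0.545 to 4.34% in the other 21. Of those 21, 4 Hz replicate 6 held 4.34% and the next highest, control replicate 2, held 2.72%. The share was thus high in the 3 libraries, though 4 Hz replicate 6 overlapped them. The low-input samples that the labels say were ribodepleted are not named there, and results resting on these 3 libraries are given with and without them.

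The regulatory DNA just before the start of transcription is shown for the 5 members whose levels moved together from library to library, as described further on: Fos, Fosb, Jun, Junb and Atf3. RefSeq promoters on GRCm38.p6 were matched for 7 of the 8 genes. Fosl1 had no entry. The last 140 bases before the start are printed 5′ to 3′ on the strand of the gene, and capitals mark every match, on either strand, to TGACG (the core of the cAMP response element, CRE), TGACATCA (a variant AP-1 site) or the TATA box, searched as TATAAA.
Fos: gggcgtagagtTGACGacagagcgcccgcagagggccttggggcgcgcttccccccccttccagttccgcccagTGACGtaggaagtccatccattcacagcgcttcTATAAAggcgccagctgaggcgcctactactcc
Fosb: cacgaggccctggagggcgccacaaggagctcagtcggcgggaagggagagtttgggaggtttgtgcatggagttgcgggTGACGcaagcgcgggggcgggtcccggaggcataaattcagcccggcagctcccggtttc
Jun: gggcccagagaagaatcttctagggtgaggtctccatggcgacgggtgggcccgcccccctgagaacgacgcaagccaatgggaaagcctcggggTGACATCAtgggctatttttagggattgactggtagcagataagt
Junb: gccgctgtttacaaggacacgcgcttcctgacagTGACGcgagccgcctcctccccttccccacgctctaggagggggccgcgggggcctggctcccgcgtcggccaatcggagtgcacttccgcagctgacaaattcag
Atf3: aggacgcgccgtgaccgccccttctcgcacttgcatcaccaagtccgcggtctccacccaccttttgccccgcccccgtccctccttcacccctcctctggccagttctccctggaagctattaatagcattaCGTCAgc

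The windows lie at chr12:85473750-85473889, plus strand (Fos), chr7:19310046-19310185, minus strand (Fosb), chr4:95052223-95052362, minus strand (Jun), chr8:84978749-84978888, minus strand (Junb) and chr1:191183334-191183473, minus strand (Atf3). Fos held TGACG at 129 and at 66 bases before the start and TATAAA at 33 bases before it. Fosb held TGACG at 60 bases and Junb at 106 bases before the start. Atf3 held it on the opposite strand, 7 to 3 bases before the start. Jun held TGACATCA at 45 bases before the start. Neither Fosl2 nor Jund held any of these. TGACG occurred in 12.8% of all 32851 promoters in windows of the same length, TGACATCA in 2.28% and TATAAA in 7.21%. The full CRE TGACGTCA (1.33% of all promoters), which contains TGACG, the AP-1 site TGACTCA (2.68%) and the CArG box, at which serum response factor binds (0.861%), were in none of the 7 windows. These matches are letters in a short window, and no binding was measured.

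In GENCODE M39 on GRCm39 the genes lie on 7 chromosomes. Fos is at chr12:85520658-85524047, Fosb at chr7:19036621-19043976, Fosl1 at chr19:5497575-5505974, Fosl2 at chr5:32292707-32315186, Jun at chr4:94937271-94940459, Junb at chr8:85701113-85705359, Jund at chr8:71151599-71153265 and Atf3 at chr1:190902493-190950241. The 3 JUN genes have a single exon in their canonical transcript, and the other 5 have 4. Genes on the opposite strand overlap Fosl1 (Ccdc85b), Jun (Junos) and Junb (Prdx2), and predicted genes overlap Fosl1, Fosl2, Junb, Jund and Atf3, while Fos and Fosb have no such overlap. The library kit named in the study's methods keeps the strand, but since the strand setting of the counting is not stated, reads from such a pair may not have been told apart.

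Across the 24 libraries the family spanned a wide range of levels per length. In the controls, the median level was 246.6 TPM for Jund, 232.3 TPM for Junb, 227.5 TPM for Atf3, 167.7 TPM for Fosl1, 132.2 TPM for Jun, 40.09 TPM for Fosl2, 24.45 TPM for Fos and 2.751 TPM for Fosb. The first 3 were not separated from each other, since Jund ran from 196.7 to 269.8 TPM, Junb from 170.6 to 260.4 TPM and Atf3 from 52.15 to 336.5 TPM. Fosl1, at 152.7 to 205.9 TPM, overlapped Junb above it and Jun, at 100 to 158.5 TPM, below it. Fosl2, at 33.1 to 43.28 TPM, lay below every Jun value and overlapped Fos, at 3.309 to 40.34 TPM, and the top of Fosb, at 0.4878 to 4.866 TPM, reached above the lowest Fos value. Unstimulated sheets thus held mainly Jund, Junb, Atf3, Fosl1 and Jun mRNA.

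**Figure D1:**
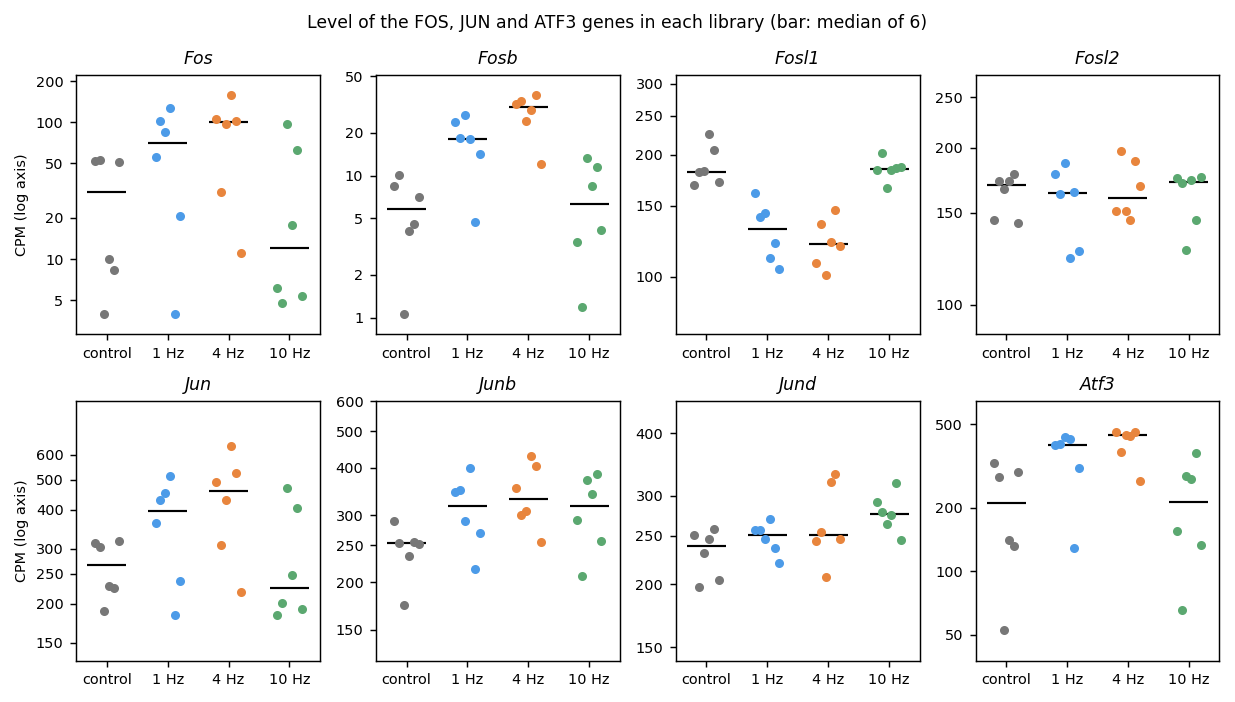
CPM (log axis) of each of the 8 genes in every library, by group, with a black bar at the median of 6 libraries. Fosb lay above the control range in all 6 libraries at 4 Hz and Fosl1 below it in all 6 at 1 Hz and at 4 Hz, and the points of Fos spread over more than 10-fold within each group.

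A gene was called where edgeR gave an adjusted p under 0.05 with a log2(fold change) beyond 0.5 in either direction, and each fold change is from counts scaled by TMM. At 4 Hz against control, 3 of the 8 genes were called higher (Fosb, Jun and Atf3) and 1 lower (Fosl1), where 12.8% of all 13315 tested genes were called higher and 12.3% lower. At 1 Hz, 1 was called higher (Fosb) and 1 lower (Fosl1), beside 7.19% of all genes called higher and 7.74% called lower. At 10 Hz, 0 of 8 were called by edgeR and 0 by DESeq2, with 2 at an unadjusted p under 0.05 by either tool, beside 0.015% of all genes called higher and 0.0225% called lower. Libraries of the frequency and the control did not overlap for Fosb, higher, at 4 Hz, where this held for 12.9% of all genes, and for Fosl1, lower, at 4 Hz (14.7% of all genes) and at 1 Hz (8.58% of all genes). No member was separate upwards at 1 Hz (5.55% of all genes) or in either direction at 10 Hz (0.774% higher, 0.864% lower). Over the 8 genes, the median log2(fold change) against control came to 0.41, 0.61 and 0.10 for 1, 4 and 10 Hz, beside 0.04, 0.06 and 0.01 over all tested genes. In a culture read in bulk, fewer cells of a type and less mRNA per cell cannot be told apart.

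**Figure D2:**
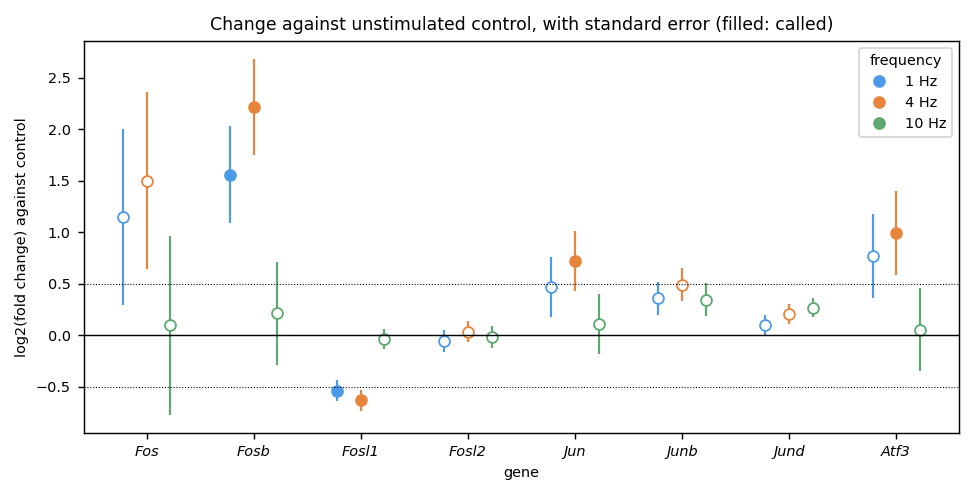
Log2(fold change) against the unstimulated control for each gene at 1, 4 and 10 Hz, with the standard error as a bar, filled points for genes called and dotted lines at 0.5 and -0.5. Fosb was the highest point at 1 Hz and 4 Hz (1.56 and 2.22), Fosl1 was the lowest (-0.54 and -0.63), and all 8 points at 10 Hz were within 0.35 of 0.

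Fosb, which encodes a full-length activator and, by splicing, the long-lived ΔFosB, had the largest fold change of the family, and the deposited gene totals do not separate these forms. Its level was 1.066 to 10.03 CPM in the controls (median 5.803), 4.739 to 26.77 CPM at 1 Hz (median 18.2), 12.09 to 36.66 CPM at 4 Hz (median 30.26) and 1.188 to 13.34 CPM at 10 Hz (median 6.259). At 4 Hz every library was above the highest control, and at 1 Hz 5 of 6 were. In log2(fold change) against control this came to 1.56 ± 0.471 (SE, n = 6 against 6) at 1 Hz, 2.22 ± 0.469 at 4 Hz and 0.21 ± 0.502 at 10 Hz. These calls at 1 Hz and 4 Hz held when any single library or the 3 libraries that stood apart were left out, with a log2(fold change) of 1.61 and 2.24 without those 3. Fosb was the least abundant member by TPM in all 24 libraries, and its lowest library held 10 estimated counts.

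Fos, whose protein c-FOS is the classical partner of c-JUN, had the widest spread. It ran from 3.999 to 52.55 CPM in the controls (median 30.8), from 3.934 to 126.3 CPM at 1 Hz (median 70.56), from 11.1 to 159.4 CPM at 4 Hz (median 99.75) and from 4.753 to 96.83 CPM at 10 Hz (median 12). Libraries of all groups overlapped, though 4 of 6 at 1 Hz and 4 of 6 at 4 Hz were above the highest control, while 1 at 1 Hz was below the lowest. The log2(fold change) was 1.15 ± 0.854 (SE, n = 6 against 6) at 1 Hz, 1.5 ± 0.86 at 4 Hz and 0.09 ± 0.868 at 10 Hz, none of them called. At 10 Hz the sign rested on single libraries, turning to -0.66 or -0.21 when 10 Hz replicate 3 or 5 was left out, and to between -0.13 and -0.094 when control replicate 3, 4 or 5 was.

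Fosl1 went the other way. This gene encodes Fra-1, an AP-1 subunit that is itself a known transcriptional target of AP-1 dimers. It stood at 168.3 to 225.8 CPM in the controls (median 181.9), at 104.5 to 160.8 CPM at 1 Hz (median 131), at 100.9 to 146.3 CPM at 4 Hz (median 120.4) and at 165.3 to 202.7 CPM at 10 Hz (median 184.3). All 12 libraries at 1 Hz and 4 Hz were below all 12 of the control and 10 Hz groups. The log2(fold change) was -0.54 ± 0.0994 (SE, n = 6 against 6) at 1 Hz, -0.63 ± 0.0997 at 4 Hz and -0.04 ± 0.0988 at 10 Hz. Without the 3 libraries that stood apart it was -0.42 at 1 Hz, inside the fold threshold and so no longer called, and -0.60 at 4 Hz, still called. The level of Fosl1 within groups moved with the ratio of TPM to CPM (r = 0.672 over 24 libraries with group means removed), and at 4 Hz that ratio was below the control range in all 6 libraries, as Fosl1 was. Beyond leaving out those 3 libraries, its part in the difference between groups was not tested.

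Fosl2, the Fra-2 gene, changed little. Control libraries held 143.5 to 178 CPM (median 169.7), those at 1 Hz 122.6 to 187.2 CPM (median 163.9), those at 4 Hz 145.3 to 197.6 CPM (median 160.1) and those at 10 Hz 127.2 to 176 CPM (median 172.3). On the log2 scale it differed from control by -0.06 ± 0.105 (SE, n = 6 against 6), 0.03 ± 0.105 and -0.02 ± 0.105 at 1, 4 and 10 Hz. All groups overlapped, so of the 2 genes that encode Fra proteins Fosl1 alone was called. Within groups Fosl2 also moved with the ratio of TPM to CPM (r = 0.782 over 24 libraries).

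Among the JUN genes, Jun, which encodes c-JUN, had the largest fold change. It stood at 189.3 to 317.3 CPM in the controls (median 265.7), 184 to 514.6 CPM at 1 Hz (median 397.3), 218.9 to 638 CPM at 4 Hz (median 459) and 183.9 to 471.3 CPM at 10 Hz (median 223.9). At 1 Hz and 4 Hz, 4 of 6 libraries were above the highest control, and 2 of 6 were at 10 Hz. The log2(fold change) was 0.47 ± 0.291 (SE, n = 6 against 6) at 1 Hz, 0.72 ± 0.292 at 4 Hz and 0.11 ± 0.291 at 10 Hz. Only the value at 4 Hz was called, and that call was lost when control replicate 3, 4 or 5 or 4 Hz replicate 1, 3, 4 or 5 was left out. Over all 12 omissions the value ran from 0.56 to 0.86. The call was also lost without the 3 libraries that stood apart (0.72).

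Junb encodes a c-JUN relative with weaker activation. Its level was 173.9 to 290.7 CPM in the controls (median 253.1), 217.1 to 399.8 CPM at 1 Hz (median 317.5), 255.7 to 429.3 CPM at 4 Hz (median 331.3) and 207.8 to 386.2 CPM at 10 Hz (median 317.1). At 4 Hz 5 of 6 libraries were above the highest control, and at 10 Hz 4 of 6 were. Its log2(fold change) was 0.36 ± 0.158 (SE, n = 6 against 6), 0.49 ± 0.158 and 0.35 ± 0.158 at 1, 4 and 10 Hz. The value at 4 Hz fell just short of the fold threshold and was not called. Jun (0.72) and Atf3 (0.99) at 4 Hz only just passed the threshold on adjusted p, and Fosl1 at 1 Hz (-0.54) only just passed that on fold. Junb was called at 4 Hz without the 3 libraries that stood apart (0.51), and without control replicate 1, 2 or 6 or 4 Hz replicate 2 or 6 (0.39 to 0.56 over all 12 omissions).

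Jund stood at 197.3 to 257.9 CPM in the controls (median 238.8), 220.8 to 269.4 CPM at 1 Hz (median 251.3), 206.7 to 331.3 CPM at 4 Hz (median 250.7) and 245 to 318.4 CPM at 10 Hz (median 276.5). The groups overlapped at each frequency. Values of 0.10 ± 0.0956 (SE, n = 6 against 6), 0.21 ± 0.0956 and 0.27 ± 0.0956 in log2(fold change) were found for 1, 4 and 10 Hz, none called. At 10 Hz 5 of 6 libraries were above the highest control. Jund was the 1 member that stood farthest from control at 10 Hz rather than at 1 Hz or 4 Hz.

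Atf3 encodes a stress-induced bZIP protein that pairs with JUN proteins and, as a homodimer, represses. It stood at 52.52 to 325.9 CPM in the controls (median 210.3), 129.3 to 433.5 CPM at 1 Hz (median 399.6), 268.6 to 461.6 CPM at 4 Hz (median 444.1) and 65.11 to 364.4 CPM at 10 Hz (median 214.2). At 4 Hz 5 of 6 libraries, and at 1 Hz 4 of 6, were above the highest control. Its log2(fold change) against control was 0.77 ± 0.408 (SE, n = 6 against 6), 0.99 ± 0.41 and 0.05 ± 0.407 at 1, 4 and 10 Hz. It was called at 4 Hz alone, and no longer when control replicate 3, 4 or 5 or any of 4 Hz replicates 1 to 5 was left out (0.78 to 1.17 over all 12 omissions), nor without the 3 libraries that stood apart (0.96). The call was also lost with the size factors of DESeq2 in place of TMM (0.968) and with only the 2 groups compared (0.969). It was lost too with no filter on low counts (0.951) and under the replicate block (0.98).

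Between frequencies, Fosb and Fosl1 were again the members called, in opposite directions. At 10 Hz against 4 Hz, Fosb was called lower at -2.01 ± 0.473 and Fosl1 higher at 0.60 ± 0.0998, beside 10.6% of all genes called lower and 10.6% higher, and Fosl1 did not overlap, as did 10.8% of all genes upwards and 8.1% downwards. Fos (-1.4 ± 0.865), Atf3 (-0.94 ± 0.41) and Jun (-0.62 ± 0.292) were not called in it, though Jun was without 4 Hz replicate 6 (-0.75) or 10 Hz replicate 3 (-0.81) and Atf3 without 10 Hz replicate 5 (-1.14). At 10 Hz against 1 Hz, Fosb was called lower at -1.35 ± 0.476 and Fosl1 higher at 0.50 ± 0.0995, just past the fold threshold, beside 4.99% and 5.85% of all genes, and Fosl1 again did not overlap, as did 5.03% upwards and 2.67% downwards. Both of these last calls were lost without the 3 libraries that stood apart, and without single libraries. Fosb was not called without 1 Hz replicate 1, 2, 3, 4 or 6 or 10 Hz replicate 1, 2, 4 or 6 (-1.61 to -1.14 over all 12 omissions), and Fosl1 not without 1 Hz replicate 4, 5 or 6 or 10 Hz replicate 2 or 6 (0.46 to 0.57). At 4 Hz against 1 Hz, 0 of 8 were called by edgeR and 0 by DESeq2, with 0 at an unadjusted p under 0.05 by either tool, where 0% of all genes were called. The largest value there was that of Fosb at 0.66 ± 0.436. All comparisons with the control share the 6 control libraries, and those with 10 Hz share the 10 Hz libraries.

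The spread within groups, which also enters the edgeR test between groups, divided the family. The SD of log2 CPM within groups was 1.72 for Fos, rank 53 from the top of 13315 genes, 0.985 for Fosb, 0.777 for Atf3, 0.525 for Jun and 0.301 for Junb. It was 0.197 for Fosl2, 0.181 for Fosl1 and 0.173 for Jund, under the median of 0.21 over all tested genes. Among genes of similar level these 3 stood at the 74.4, 69.1 and 67.7 percentile, and the other 5 between the 91.9 and the 99.9 percentile. The first 5 are the immediate early members. In the controls alone, without any session, Fos ran over 13.1-fold, Fosb over 9.41-fold and Atf3 over 6.2-fold from the lowest to the highest library, while Fosl1 ran over 1.34-fold and Jund over 1.31-fold.

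Many libraries, though not all, were low or high in all 5 of these genes together. In 8 of the 24 libraries Fos, Fosb, Jun, Junb and Atf3 were all below the median of their group, in 8 all were above it, and 8 were mixed. The 8 low libraries were control replicates 3 and 4, 1 Hz replicates 5 and 6, 4 Hz replicate 6 and 10 Hz replicates 1, 2 and 6. With group means removed, over the 24 libraries, log2 CPM of Fos moved with that of Jun (r = 0.961), Atf3 (0.877), Junb (0.861) and Fosb (0.855), and Fosb moved with Atf3 (0.953). Fosl1 moved with Fosl2 (r = 0.786, and 0.713 to 0.88 within each group of 6). The r of Fos with Fosl1 (-0.143) and with Jund (0.158) pooled groups of opposite sign, from -0.732 at 10 Hz to 0.319 at 1 Hz for Fosl1 and from -0.519 in the controls to 0.691 at 1 Hz for Jund. These points share a library and its scaling, and the values are given as a description.

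**Figure D3:**
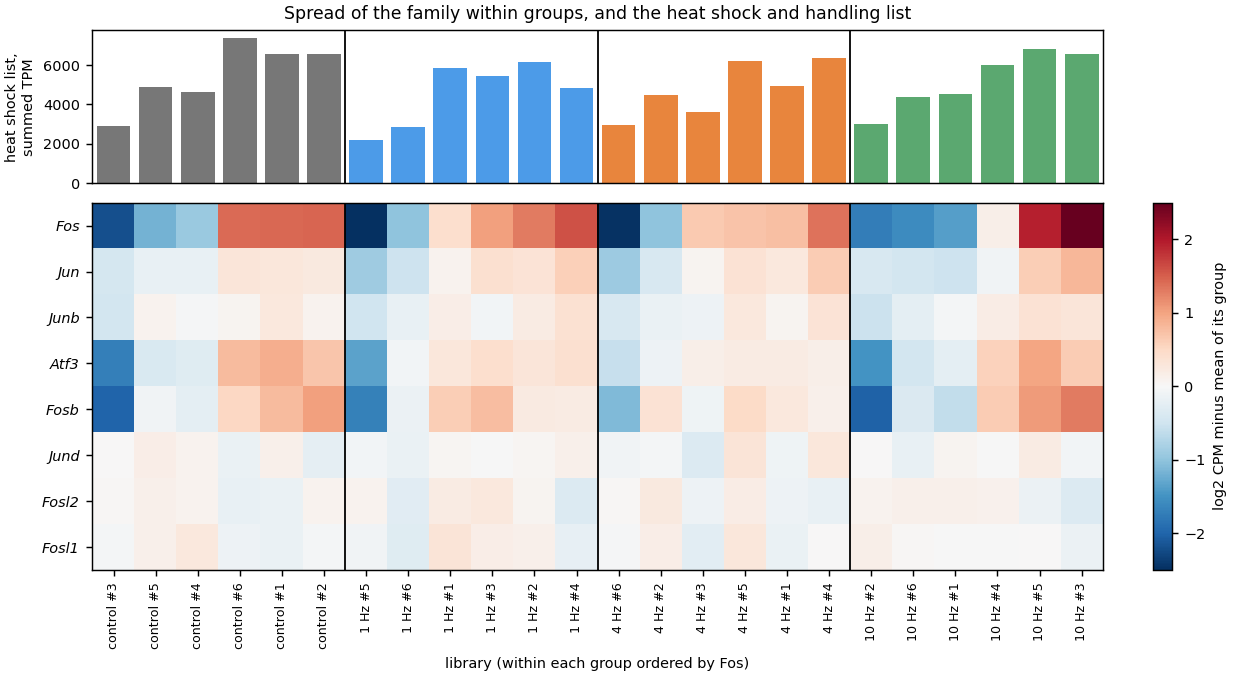
Lower panel: log2 CPM of each gene minus the mean of its group (colour) in the 24 libraries, ordered within each group by Fos. Upper panel: summed TPM of 6 heat shock and handling genes in the same libraries. Control replicate 3, 1 Hz replicate 5, 4 Hz replicate 6 and 10 Hz replicate 2 were lowest in Fos in their groups, and each also had the lowest summed TPM of the 6 genes in its group (2889, 2194, 2951 and 3010).

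A list of 6 heat shock and handling genes (Hspa1a, Hspa1b, Hsph1, Dnajb1, Hspb1 and Hspa8), which cells raise under heat and protein damage, moved with the same libraries. Its summed level was 2890 to 7390 TPM in the controls, 2190 to 6170 TPM at 1 Hz, 2950 to 6360 TPM at 4 Hz and 3010 to 6800 TPM at 10 Hz, so the groups overlapped. With group means removed it moved with Junb (r = 0.894), Fosb (0.888), Fos (0.877), Atf3 (0.874) and Jun (0.841) over the 24 libraries, and less with Jund (0.34), Fosl1 (0.205) and Fosl2 (-0.102). Its part in the values of the 5 immediate early genes was not tested. Of the 6, 1 was called at 4 Hz against control, Dnajb1, a co-chaperone of HSP70, at 1.26 ± 0.479 on the log2 scale (adjusted p = 0.034, edgeR), a call lost without any of 7 single libraries, control replicates 3, 4 and 5 and 4 Hz replicates 1, 3, 4 and 5 (1.04 to 1.23), and also without the 3 libraries that stood apart (1.23), with no filter on low counts (1.21) and under the replicate block (1.22). The list had 0 called at 1 Hz and 10 Hz, and its median log2(fold change) was -0.09, 0.14 and -0.07. With the summed myotube markers, r was 0.093 to 0.355 for these 5 genes, highest for Junb, and -0.51 for Fosl2.

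The genes most like each member over the 24 libraries were sought among the other tested genes whose log2 CPM averaged 1 or more. Fos was most like Egr1 (r = 0.989) and Rgs16 (0.975), and with group means removed these were 0.993 and 0.977. Egr1 encodes a zinc finger factor of the immediate early class. Jun was most like Ier2 (0.969) and Egr1 (0.966), Fosb like Irs2 (0.974) and Gem (0.963), and Atf3 like Dnajb4 (0.978) and Gem (0.976). Junb was most like Siah2 (0.928) and Gdf15 (0.923). Fosl1 was most like Hr (0.959) and Pgd (0.954), which fell to 0.872 and 0.815 once group means were removed. Fosl2 was most like Arhgef10 (0.875) and Mideas (0.847), and Jund like Eno1b (0.838) and Rnf126 (0.819). Eno1b is a near copy of Eno1, so its count is uncertain.

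The make-up of the FOS and JUN mRNA pool, as the share of each of 7 genes in their summed TPM, followed from these levels. In the order control, 1, 4 and 10 Hz, Fosl1 held 20.9 ± 2.93% (SD, n = 6), 12.8 ± 2.45%, 10.9 ± 2.35% and 18.4 ± 3.81%. Fos held 2.76 ± 2.16%, 5.05 ± 3.25%, 6.03 ± 3.4% and 2.38 ± 2.66%, and Fosb at most 1.87% in any library. Jun held 15.7 ± 2.61%, 18.8 ± 3.74%, 20.5 ± 3.88% and 14.4 ± 4.1%. Junb held 27 ± 2.23%, 30.8 ± 2.46%, 30.7 ± 0.568% and 30 ± 3.29%, and Jund 28.5 ± 3.71%, 27.5 ± 4.32%, 26.6 ± 3.89% and 30.3 ± 3.88%. Of the 4 FOS genes alone, Fosl1 held 72.8 ± 7.05%, 56.3 ± 10.7%, 49 ± 10.9% and 72.2 ± 9.23% in the same order, with overlap between the groups. The JUN genes outweighed the FOS genes in every library, as the FOS genes together held from 19.8 to 31.1%. These are shares of mRNA, and protein was not measured.

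**Figure D4:**
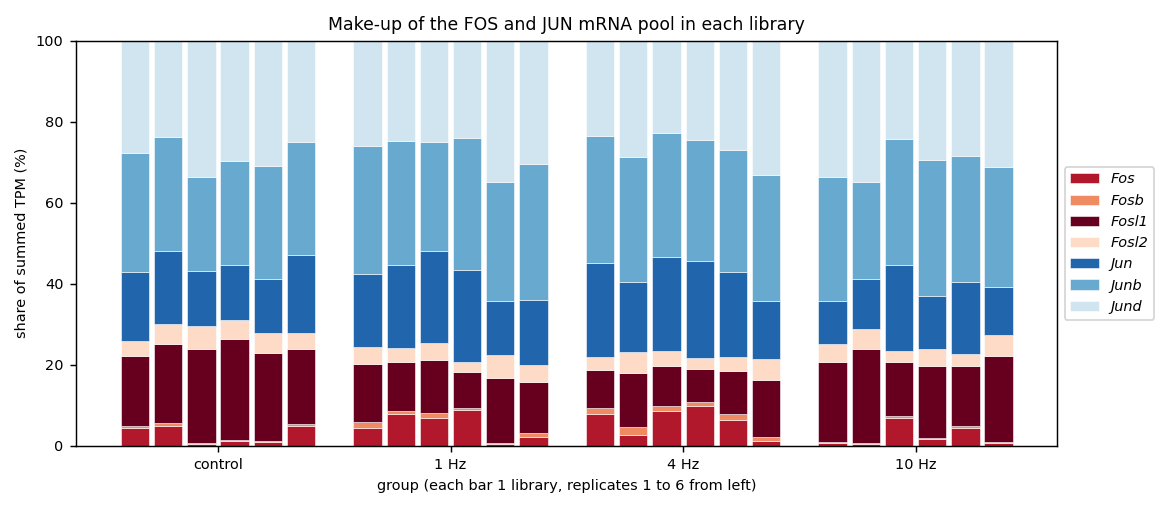
Share (%) of each of the 7 FOS and JUN genes in their summed TPM, with 1 stacked bar per library and red shades for FOS genes, blue shades for JUN genes. The dark Fosl1 band is narrower at 1 Hz and 4 Hz (means of 12.8 and 10.9%) than in the control and at 10 Hz (20.9 and 18.4%), while the means of Junb and Jund lie between 26.6 and 30.8% in every group.

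Lists of genes around AP-1, 5 in number and with 106 genes of which 93 were tested, place the family among its partners. Over these lists 18 genes were called higher and 6 lower at 1 Hz, 20 higher and 12 lower at 4 Hz and 0 at 10 Hz, where edgeR gave 10 and DESeq2 12 at an unadjusted p under 0.05 and DESeq2 called 0. Their median log2(fold change) came to 0.08, 0.10 and 0.05 for 1, 4 and 10 Hz. Without the 3 libraries that stood apart, the calls at 1 Hz numbered 15 in place of 24. Of all 13315 tested genes, 7.19% were called higher and 7.74% lower at 1 Hz, and 12.8% higher and 12.3% lower at 4 Hz. At 10 Hz the shares were 0.015% and 0.0225%. The same shares are to be read beside the counts of each list below. These lists were compiled with earlier results known. Each is described by its counts and median, and the genes named from it, taken by smallest p, carry their own adjusted p over all tested genes.

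Of 13 tested other immediate early genes, 7 were called higher and 0 lower at 1 Hz, 7 higher and 0 lower at 4 Hz and 0 at 10 Hz, with a median log2(fold change) of 0.70, 1.02 and 0.13. Nr4a1, an orphan nuclear receptor, rose from 24.3 ± 5.5 CPM in the controls (SD, n = 6) to 67.9 ± 19.7 at 1 Hz and 79.7 ± 13 at 4 Hz, with adjusted p of 6.5e-05 and 6.6e-06 in edgeR and all 6 libraries above the control range at both. Arc, known from neurons as an activity-regulated gene, rose by 1.14 ± 0.26 and 1.16 ± 0.261 in log2(fold change) (adjusted p = 0.0019 and 0.00099). Btg2, an antiproliferative gene, rose at 4 Hz by 1.45 ± 0.361 (adjusted p = 0.0025), and Egr3, an EGR factor, at 1 Hz by 0.61 ± 0.13 (adjusted p = 7e-04). The summed level of this list moved within groups with Jun (r = 0.944) and Fos (0.906).

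Of 25 tested other bZIP factors, 6 were called higher and 1 lower at 1 Hz, 6 higher and 3 lower at 4 Hz and 0 at 10 Hz, with a median log2(fold change) of 0.11, 0.10 and 0.07. Without 1 Hz replicate 4, 3 were called at 1 Hz, and without all 3 libraries that stood apart also 3. Creb5, a CREB and ATF family factor that can pair with JUN, rose from 23.9 ± 1.42 CPM (SD, n = 6) to 64.7 ± 16.3 at 1 Hz and 69 ± 9.99 at 4 Hz (edgeR adjusted p = 1.7e-08 and 3.1e-09), with every stimulated library above every control. Mafk, a small MAF protein without an activation domain, rose by 0.59 ± 0.0869 and 0.75 ± 0.0872 (adjusted p = 1.1e-05 and 2.3e-07). In limma on log2(TPM + 1), Mafk came to 0.38 and 0.42 and was not called. Its relative Maff rose at 4 Hz by 0.68 ± 0.0778 (adjusted p = 1.7e-07), and Cebpg, a C/EBP partner, at 1 Hz by 0.53 ± 0.0816 (adjusted p = 2e-05), which was 0.42 without the 3 libraries that stood apart, inside the fold threshold, and 0.46 to 0.49 without any one of control replicate 4 and 1 Hz replicates 3, 4 and 6.

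Of 26 tested upstream kinases and factors, 1 was called higher and 1 lower at 1 Hz, 1 higher and 2 lower at 4 Hz and 0 at 10 Hz, with a median log2(fold change) of -0.10, -0.0025 and -0.02. At 4 Hz 5 were called without control replicate 3 or without control replicate 5. In limma 8 were called at 4 Hz on log2(TPM + 1) and 9 on log2(TPM + 0.1). At 1 Hz both limma fits called 4, while 1 was called with no filter on low counts or without the 3 libraries that stood apart. Mrtfa, an actin-regulated coactivator of serum response factor, fell from 55.7 ± 5.71 CPM to 36.5 ± 11.4 at 1 Hz and 31.9 ± 4.99 at 4 Hz (SD, n = 6, edgeR adjusted p = 0.0029 and 0.00016), and at 1 Hz its log2(fold change) was -0.61, or -0.39 and not called without the 3 libraries that stood apart. Rps6ka5, the kinase MSK1, rose at 1 Hz by 0.52 ± 0.129 (adjusted p = 0.0029), and was not called without control replicates 1 or 4 or 1 Hz replicates 1, 2 or 4 (0.46 to 0.50). At 4 Hz Map2k6, which activates p38, rose by 0.71 ± 0.211 (adjusted p = 0.007), and Map3k7, the kinase TAK1, fell by 0.51 ± 0.114 on the log2 scale (adjusted p = 7e-04), a call lost without control replicate 2 or 4 Hz replicates 1 or 4 (-0.46 to -0.50).

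Of 9 regulators of mRNA or protein turnover, 1 was called higher and 1 lower at 1 Hz, 2 higher and 3 lower at 4 Hz and 0 at 10 Hz, with a median log2(fold change) of -0.27, -0.42 and 0.0044. Without 4 Hz replicate 1 or 4 Hz replicate 4, 3 were called at 4 Hz. At 1 Hz 5 were called in limma on log2(TPM + 1) and on log2(TPM + 0.1). Fbxw7, the substrate receptor of a ubiquitin ligase that takes phosphorylated c-JUN, fell from 71 ± 6.89 CPM to 36 ± 5.69 at 1 Hz and 33.9 ± 3.35 at 4 Hz (SD, n = 6, edgeR adjusted p = 3.9e-08 and 6.9e-09), with all 12 libraries below the control range. Itch, a ubiquitin ligase for c-JUN and JUNB, fell by 0.50 ± 0.117 on the log2 scale at 4 Hz (adjusted p = 0.00096), just past the fold threshold and not called without control replicates 2 or 6 or 4 Hz replicates 1 or 4 (-0.47 to -0.50), nor without the 3 libraries that stood apart (-0.49). Zfp36l1, which speeds the decay of mRNAs with AU-rich elements, rose at 1 Hz by 0.80 ± 0.233 (adjusted p = 0.011), and its relative Zfp36l2 fell by 0.54 ± 0.0834 on the log2 scale at 4 Hz (adjusted p = 1e-05), and was not called without 4 Hz replicate 1 (-0.49).

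Of 20 tested genes known as AP-1 targets, 3 were called higher and 3 lower at 1 Hz, 4 higher and 4 lower at 4 Hz and 0 at 10 Hz, with a median log2(fold change) of 0.15, 0.16 and 0.10. Il6, a cytokine that contracting muscle releases, rose from 2.8 ± 0.874 CPM to 12.2 ± 3.78 at 1 Hz and 16.4 ± 4.86 at 4 Hz (SD, n = 6, edgeR adjusted p = 1.1e-05 and 5.3e-07). Areg, an EGF receptor ligand, rose by 0.92 ± 0.146 and 0.88 ± 0.147 in log2(fold change) (adjusted p = 2.9e-05 and 2.6e-05). Hmox1, the haem-degrading enzyme, fell from 1060 ± 71.4 CPM to 580 ± 112 and 552 ± 64.4 (adjusted p = 2.4e-06 and 3.7e-07), with all 12 libraries below the control range. Genes of this list also answer to other factors, and whether AP-1 acted on them was not tested.

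**Figure D5:**
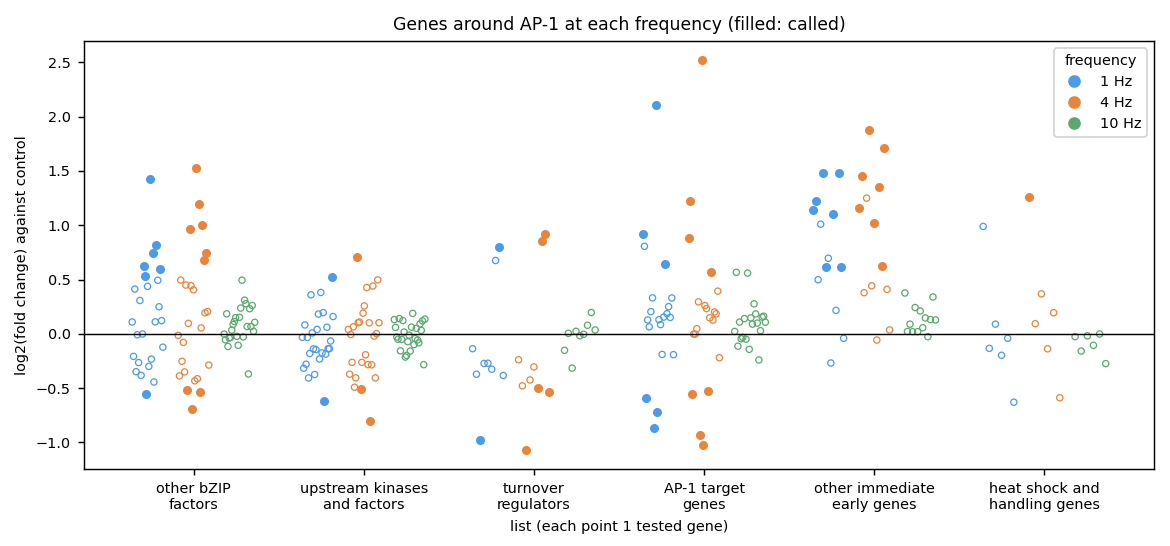
Log2(fold change) against control of each tested gene of 6 lists at 1, 4 and 10 Hz, with filled points for genes called. The other immediate early genes were called only upwards (7 at 1 Hz and 7 at 4 Hz), the AP-1 target genes in both directions, led by Il6 at 2.52 at 4 Hz, and no gene of any list was called at 10 Hz. Of all tested genes, 0.015% were called higher and 0.0225% lower at 10 Hz.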

How the data were processed

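RNA of 24 muscle sheets was sequenced by the authors as read pairs after poly(A) selection or, for low-input samples that the labels do not name, ribodepletion. Reads were processed with nf-core/rnaseq 3.11.1 and salmon against GRCm39. The deposited estimated counts per gene were not normalized, and 6.147% of them were not whole. The deposited TPM values were scaled by the authors for transcript length, to 1e+06 per library. BWA and STAR are also named in the sources, and the strand setting is not given in the sources used here. Samples were grouped by their titles, and 0 columns lacked a sample.

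Counts were rounded and tested with the quasi-likelihood F test of edgeR 4.0.16 in R 4.3.3, in 1 fit of all 24 libraries, with TMM scaling, filterByExpr (minimum count 10, minimum total 15) and Benjamini-Hochberg adjustment over the 13315 genes tested. CPM used TMM-scaled library sizes, and r is Pearson's on log2 CPM (prior count 2). At this depth the biological coefficient of variation was 14.78%. The method was tested on counts simulated independently for each gene, with the same dispersion for every gene. That setting does not hold the wide and shared spread of the immediate early members. DESeq2 1.42.0 and limma 3.58.1 were alternatives, as were other scalings, no filter, the 2 groups alone, a replicate block and leaving out each library. Leaving out 3 libraries together was chosen after seeing the data.

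The members and lists were chosen with earlier results of these data known. Besides all members, the text names, per list and frequency, up to 3 called genes with the smallest p and an average log2 CPM of at least 1, and for each member the 2 genes with the highest r. From the marker lists, 1 gene is not reported here. GENCODE M39 held 98.9% of the gene identifiers.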

Additional observations from a re-analysis of the deposited data

How the results depend on the processing

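Fosb and Fosl1 at 4 Hz against control were called under every alternative run. Over the alternatives, the fold changes of the members lost a call in 50 cases, gained one in 10 and reversed a called value in 0, and those of the named list genes lost one in 50. Of the 8 members, 4 were called at 4 Hz against control, and this became 2 with no filter on low counts, 2 in limma on log2(TPM + 1), 2 in limma on log2(TPM + 0.1) and 2 to 5 when single libraries were left out. At 10 Hz against 1 Hz the 2 called became 1 with upper-quartile factors, with no filter, with the 2 groups alone and under both limma fits, 0 to 2 when single libraries were left out, and 0 without the 3 libraries of low TPM to CPM ratio, an alternative chosen after seeing the data. At 1 Hz against control the 2 called became 1 without those 3 libraries and stayed at 2 when single libraries were left out. At 10 Hz against 4 Hz, 2 to 3 were called when single libraries were left out, and at 10 Hz against control and 4 Hz against 1 Hz 0 were called under every alternative. The 24 list genes called at 1 Hz became 15 without the 3 libraries and 18 to 29 without single libraries, and the 32 at 4 Hz became 29 to 35. Without the threshold on fold change they became 50 and 63. On the TPM scale the median of all genes shifted by -0.14 at 1 Hz and -0.21 at 4 Hz. Among the named list genes, both limma fits lost the calls of Mafk at 1 Hz and 4 Hz and of Maff and Map2k6 at 4 Hz. They also lost those of Egr3, Zfp36l1, Cebpg and Rps6ka5 at 1 Hz. The cause of these moves was not tested.

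Deviations from the group means of libraries with the same replicate number had an r from -0.332 to 0.242. Libraries with different numbers were not compared in this way, so whether the numbers pair the libraries was not tested. With the number as a replicate block, members called were 2 at 4 Hz against control, 1 at 10 Hz against 1 Hz and 2 at 1 Hz against control, and list genes called were 22 at 1 Hz and 33 at 4 Hz. Of 32 sets of 6 libraries (8 genes in 4 groups), 0 held a library far from the rest by Dixon's test on CPM. The test was not run on log2 CPM, where low libraries weigh more. On that scale, relative to the group mean, Atf3 in 1 Hz replicate 5 was at -1.33 and the next lowest library at -0.073. Fosb was at -1.68 in 1 Hz replicate 5 (next -0.14) and at -1.11 in 4 Hz replicate 6 (next -0.11). The spread of Fos within groups limits what can be seen of it with 6 libraries per group.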
